A study of Mus musculus with 2 samples.

Results

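The chemokine Cxcl12 and its receptors Ackr3 and Cxcr4 were followed across the vessel types of the mouse lung, in healthy lungs and 6 h after melanoma cells had entered the circulation. The 3 genes were picked by symbol out of 32285 in the count matrices. They were chosen with earlier values of these data in view: Ackr3 was selected on its higher level in general capillary cells and its lower level in lymphatic cells of the injected lungs, Cxcr4 as among the genes most lowered in general capillary cells, and Cxcl12 as the ligand that both receptors share. Those values are given here as a description.

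CXCL12 is a secreted chemokine held on heparan sulfate at cell surfaces. CXCR4 is a G protein-coupled receptor that signals and steers migration, including the growth and joining of vessels during development. ACKR3, also called CXCR7, is an atypical receptor: it binds CXCL12, couples to arrestins instead of G proteins, and takes the ligand up for breakdown, so that it shapes how much CXCL12 reaches CXCR4. In many vascular beds Cxcl12 and Cxcr4 are associated with arterial endothelium and Ackr3 with venous endothelium.

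Single-cell RNA sequencing was available for 1 library per group. Wild-type C57BL/6 mice, young adult males per the study's methods, were given 100 µl of buffered saline (PBS) through the tail vein, either alone (control) or with 400000 cells of the mouse melanoma line B16-F10, and lungs were taken 6 h later (B16-F10 6 h). The labels give 2 mice per treatment, on which the study's methods differ, and no age. Cells of the mice in a treatment were pooled. Pecam1-positive, Ptprc-negative cells were sorted to obtain endothelial cells (ECs) without leukocytes, and dyed melanoma cells were added to the B16-F10 6 h library only. Tail vein injection carries the cells to the lung in a single pass, so a primary tumor was not part of this model.

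The control library held 85794655 unique molecular identifiers (UMIs, each marking 1 captured RNA molecule) and the B16-F10 6 h library 104978816. After filtering, 7830 and 7767 cells remained, with a median of 7510 and 8557 UMIs, and 18 cell barcodes occurred in both libraries. Of these cells, 7118 and 6348 were ECs. General capillary (gCap-like) cells numbered 4960 and 4586, aerocyte capillary (aCap-like) cells, the thin cells of gas exchange, 1446 and 967, artery-like cells 183 and 141, and vein-like cells 293 and 278. Only 58 and 51 cells were lymphatic (LEC-like). The labelled cell type was read through fixed marker lists, which also named the classes. Among listed markers, Ccl21a, Reln, Mmrn1 and Prox1 were leading genes of the LEC-like cluster, Slc6a2 and Car8 of the vein-like cluster, and Gja5 of the artery-like cluster. Since the lists hold these genes, this is no separate check of the names. Levels are given as CPM, the UMIs of a gene per 1000000 UMIs of all genes in its class. All intervals are 95% intervals of counting error between single libraries, so the spread between mice is unknown and no difference was tested.

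The genes were located on GRCm38, the build called mm10 in the submitters' notes. Ackr3 (ENSMUSG00000044337) lies on chromosome 1 from 90203980 to 90216751 on the plus strand, and Cxcr4 (ENSMUSG00000045382) on the same chromosome from 128588199 to 128592293 on the minus strand. Cxcl12 (ENSMUSG00000061353) lies on chromosome 6 from 117168535 to 117181367 on the plus strand. All are protein coding. Because the receptors differed in opposite directions in the same capillary cells, the 150 bases before each RefSeq transcription start (GRCm38.p6) are shown so that their make-up can be compared, 5′ to 3′ on the gene's strand. Capitals mark a TATA box (TATAAA) or a GC box (GGGCGG) on either strand.
Ackr3, chr1:90203830-90203979, plus strand: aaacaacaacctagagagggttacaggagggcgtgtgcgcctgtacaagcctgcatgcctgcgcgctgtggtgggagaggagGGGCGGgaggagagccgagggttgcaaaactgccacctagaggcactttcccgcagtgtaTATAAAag
Cxcr4, chr1:128592300-128592449, minus strand: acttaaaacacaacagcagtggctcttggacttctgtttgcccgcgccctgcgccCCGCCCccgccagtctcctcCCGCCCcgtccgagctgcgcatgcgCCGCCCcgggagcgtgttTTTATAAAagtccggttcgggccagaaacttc
Cxcl12, chr6:117168385-117168534, plus strand: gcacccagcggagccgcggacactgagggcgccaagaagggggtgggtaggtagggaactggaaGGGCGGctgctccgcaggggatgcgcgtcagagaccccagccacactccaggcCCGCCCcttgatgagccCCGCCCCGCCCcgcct
The Cxcr4 window held TATAAA at positions -30 to -25 from the start, overlapped by a match on the other strand at -32 to -27. The Ackr3 window held it at -8 to -3, and the Cxcl12 window not at all, while 7.57% of 32851 promoter windows of this length held it. GC boxes numbered 1 before Ackr3, 3 before Cxcr4 and 4 before Cxcl12, where the last pair overlapped, and 28.6% of all windows held at least 1. The hypoxia element core was searched as ACGTG, which none of the 3 windows held (11.2% of all windows), and as GCGTG, which the Ackr3 window held at -120 to -116 and the Cxcr4 window at -39 to -35 (20.5%). TTCNNNGAA, the core that STAT proteins bind (4.09%), and the NF-kB motif (0.925%) were in none of the 3. Such matches are letters in a window, not sites of binding.

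Along the vessel tree of healthy lungs, the receptors occupied different ends. Taken by whole vessel class, Ackr3 was highest in veins, Cxcr4 was highest in arteries and nearly absent from veins, and the ligand Cxcl12 was highest in arteries. Within the gCap-like class, a cluster described below had a Cxcr4 level that overlapped that of arteries. aCap-like cells had little of the receptors or the ligand.

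Ackr3 in the control library stood at 601 CPM in vein-like cells (574 to 629), where 89.4% of cells had a UMI. LEC-like cells followed at 91.5 CPM (66.5 to 123), gCap-like cells at 65.9 CPM (63.4 to 68.6), artery-like cells at 31.4 CPM (22.8 to 42.2) and aCap-like cells at 2.29 CPM (1.55 to 3.27). All neighbours in this order differed beyond counting error, LEC-like and gCap-like cells only just, by 1.39-fold (1.01 to 1.87). Veins exceeded arteries 19.1-fold (14.2 to 26.4).

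Cxcr4 in the control library stood at 47.2 CPM in artery-like cells (36.5 to 60.0) and at 25.3 CPM in gCap-like cells (23.7 to 27.0), a difference of 1.86-fold (1.43 to 2.39). A UMI was found in 18.6% and 12.6% of these cells. The level was 0.916 CPM in aCap-like cells, from 12 UMIs, and 0.646 CPM in vein-like cells, from 2 UMIs, and these could not be told apart. LEC-like cells had no Cxcr4 UMI in either library, which allows at most 6.24 CPM in control and 6.23 CPM after injection. The LEC counts, 0 of 58 and 0 of 51 cells, allow a share of cells with a UMI of up to 5.17% and 5.88%.

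Cxcl12 in the control library stood at 1990.4 CPM in artery-like cells (1917 to 2066), 5.21-fold (5.0002 to 5.43) above the 382 CPM of gCap-like cells (376 to 388). Vein-like cells had 77.5 CPM (68.0 to 87.9) and LEC-like cells 62.4 CPM (42.1 to 89.1), which did not differ beyond counting error. aCap-like cells had 7.56 CPM (6.14 to 9.20). A UMI of Cxcl12 was found in 90.7% of artery-like and 32.8% of vein-like cells.

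Free RNA in the droplets supplied a small part of these levels. Scaled by secreted epithelial transcripts such as Sftpc, which ECs do not make, it would give 0.739 CPM of Ackr3, 0.324 CPM of Cxcr4 and 3.06 CPM of Cxcl12 in gCap-like cells of the control library, and 2.52, 0.283 and 3.75 CPM in those of the B16-F10 6 h library. In aCap-like cells of the control library the estimate was 0.599 CPM for Ackr3, 0.263 CPM for Cxcr4 and 2.48 CPM for Cxcl12, so their low levels lay only a few times above it. Cxcr4 in vein-like cells, where the estimate was 0.261 CPM, could not be told apart from it.

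**Figure D1:**
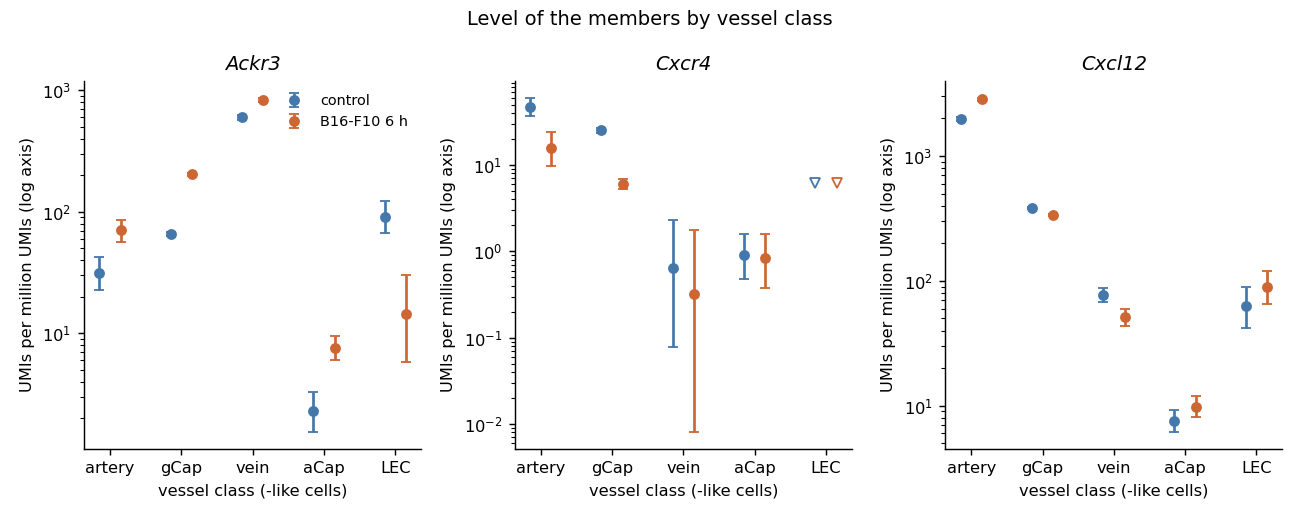
Level of Ackr3, Cxcr4 and Cxcl12 (CPM, log axis) in 5 vessel classes of the control (blue) and B16-F10 6 h (orange) libraries. Points are summed UMIs of a class, bars 95% Poisson intervals, and open triangles stand at 3 counts where no UMI was found. Ackr3 peaks in veins at 601 and 834 CPM, Cxcl12 and Cxcr4 in arteries, and aCap-like cells are lowest or near lowest in each panel.

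After injection of melanoma cells, general capillary cells held more Ackr3 and less Cxcr4, while Cxcl12 was near its control level there. Ackr3 in gCap-like cells was 3.08-fold higher and Cxcr4 4.17-fold lower in the B16-F10 6 h library. Artery-like cells had the same directions for the receptors, vein-like cells had slightly more Ackr3, and in the few LEC-like cells Ackr3 was lower.

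For Ackr3 in gCap-like cells, 2459 UMIs in the control library stood against 8158 in the B16-F10 6 h library, or 65.9 CPM against 203 CPM (198 to 207), a log2 ratio of 1.62 (1.56 to 1.69). For Cxcr4, 944 UMIs stood against 244, or 25.3 CPM against 6.07 CPM (5.33 to 6.88), a log2 ratio of -2.06 (-2.27 to -1.86). For Cxcl12, 14249 UMIs stood against 13648, or 382 CPM against 339 CPM (334 to 345), a log2 ratio of -0.17 (-0.21 to -0.14). For each of the 3 members, the intervals of the level did not overlap between the libraries, and Cxcl12 differed least. Among 13292 genes with at least 50 UMIs in gCap-like cells, whose median log2 ratio was -0.04, Ackr3 ranked 139 from the top and Cxcr4 20 from the bottom. Of the 3 members, 1 had a log2 ratio of at least 1, as had 3.05% of all genes, and 1 had a log2 ratio of at most -1, as had 2.7%. Since both were selected on this contrast, nothing is read from these shares.

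The gCap-like class was made up of different cells in the libraries. Of its 7 clusters, cluster 0, led by Hey1 and Hilpda, held 1727 control and 648 B16-F10 6 h cells. Cluster 3, led by Vegfc and Chrm2, held 716 and 1095. Cluster 4, led by Lalba, Adamts9 and Tmem252 and with Pim3 among its leading genes, held 81 and 1047. Weighted to the control library's make-up, an alternative added after the data were seen, the log2 ratio was 0.86 for Ackr3, -1.80 for Cxcr4 and -0.09 for Cxcl12.

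Within single clusters the receptors still differed. Ackr3 was higher in the B16-F10 6 h library in 7 of 7 clusters beyond counting error, by log2 ratios of 0.50 to 1.88. Cxcr4 was lower in 7 of 7, by -4.60 to -0.996. The value of -4.60 was that of cluster 10 and rested on 118 and 1 UMIs (-9.92 to -2.10). Cluster 4 rested on 6 and 14 UMIs, with -2.70 (-4.17 to -1.04). Cxcl12 was lower beyond counting error in 2 of 7 and higher in 0.

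The clusters also showed how the members were spread among capillaries. Cluster 4 had the highest Ackr3 level in both libraries, 195 CPM in control (162 to 232) and 411 CPM after injection (399 to 424). Cluster 2, led by Zswim5 and Pknox2 and with the arterial genes Efnb2 and Hey1 among its leading genes, had the lowest Ackr3 level in both libraries, 26.6 CPM (23.1 to 30.6) and 54.3 CPM (49.4 to 59.4), though not beyond counting error from cluster 10, at 28.2 CPM (23.0 to 34.2) and 65.2 CPM (48.2 to 86.2). Cluster 2 also had the most Cxcr4 of the gCap-like clusters, 51.7 CPM (46.7 to 57.0) and 17.0 CPM (14.3 to 19.99). These levels overlapped those of artery-like cells, 47.2 CPM (36.5 to 60.0) in control and 15.9 CPM (9.85 to 24.3) after injection. The receptors thus peaked in different clusters. Cxcl12 was highest in another cluster, 7, led by Ntrk2 and Sema3c and with Sox17 among its leading genes, at 897 CPM (867 to 928) and 865 CPM (835 to 896), which overlapped between the libraries.

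**Figure D2:**
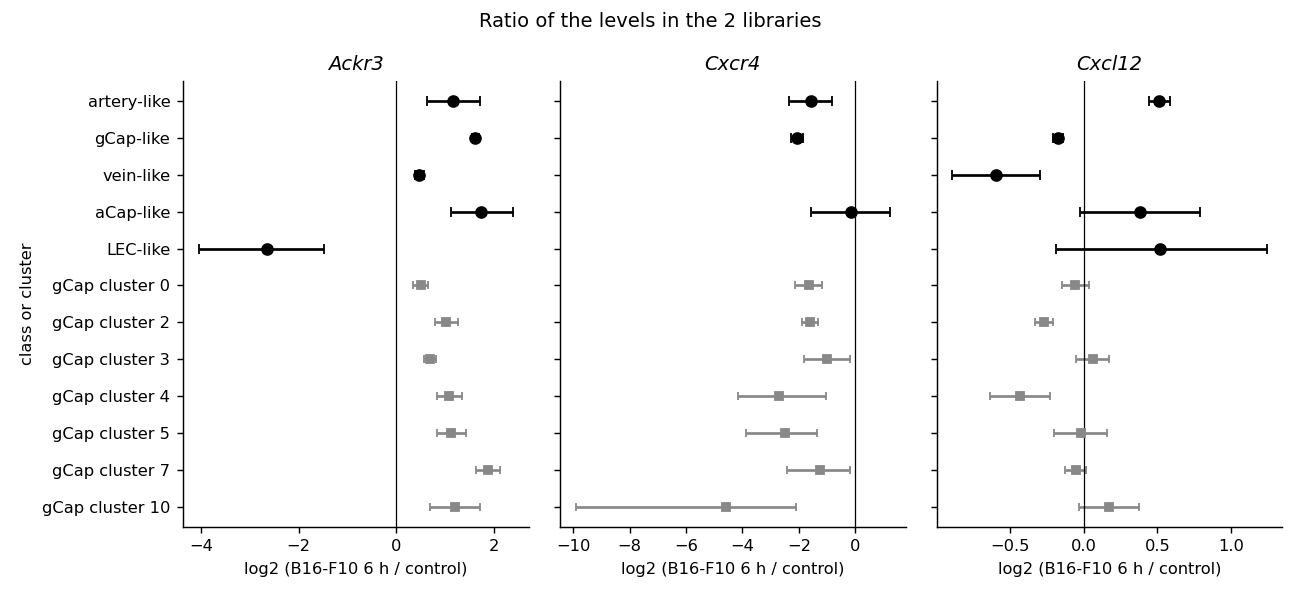
Log2 ratio of the B16-F10 6 h to the control level of each member by vessel class (black circles) and by gCap-like cluster (grey squares), with 95% counting intervals and separate x axes. Cxcr4 in vein-like and LEC-like cells, with 0 to 2 UMIs a library, is not drawn. Ackr3 lies right of 0 everywhere but in LEC-like cells, Cxcr4 lies left of 0 in every gCap-like cluster, and Cxcl12 lies on both sides of 0.

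In artery-like cells Ackr3 rested on 44 UMIs in control and 93 in the B16-F10 6 h library, or 31.4 against 70.5 CPM (56.9 to 86.3), with a log2 ratio of 1.16 (0.63 to 1.72). Cxcr4 rested on 66 and 21 UMIs, 47.2 against 15.9 CPM (9.85 to 24.3), with a log2 ratio of -1.57 (-2.35 to -0.84). Cxcl12 had 2785 and 3745 UMIs, 1990.4 against 2837 CPM (2747 to 2930), with a log2 ratio of 0.51 (0.44 to 0.58). Arteries thus kept their excess of the ligand, at 5.21-fold over gCap-like cells in the control and 8.36-fold (8.06 to 8.67) in the B16-F10 6 h library. In artery-like cells 1 of 3 members reached a log2 ratio of 1, against 2.06% of 7242 genes, and 1 of 3 reached -1, against 1.49%.

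In vein-like cells Ackr3 was higher by less, from 601 CPM (1860 UMIs) to 834 CPM (2612 UMIs, 802 to 866), with a log2 ratio of 0.47 (0.39 to 0.56). The share of vein-like cells with an Ackr3 UMI was 89.4% in control and 96.0% after injection. Ackr3 in veins exceeded that in gCap-like cells 9.11-fold (8.57 to 9.68) in the control and 4.11-fold (3.93 to 4.30) in the B16-F10 6 h library, so the gap between these vessels was narrower after injection. Cxcl12 in vein-like cells rested on 240 and 161 UMIs, 77.5 against 51.4 CPM (43.8 to 60.0), with a log2 ratio of -0.59 (-0.89 to -0.30). That difference had no stable direction: it was 0.13 with the lower limit set at 500 genes per cell. Cxcr4 had 2 and 1 UMIs. Neither measured member reached a log2 ratio of 1 or -1 in veins, against 1.68% and 1.26% of 9318 genes.

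In aCap-like cells Ackr3 rested on 30 and 83 UMIs, 2.29 against 7.63 CPM (6.08 to 9.46), with a log2 ratio of 1.74 (1.12 to 2.39). With 6.72% of cells carrying a UMI after injection, it stayed below every other vessel class of that library except LEC-like cells, from which it could not be told apart. When cells with over 5000 genes were kept, the ratio was 1.03. The free RNA estimate for Ackr3 in aCap-like cells was also higher after injection, at 1.97 CPM against 0.599 CPM in control. With this estimate subtracted the log2 ratio was 1.74. The levels lay only a few times above the estimate in both libraries, and the part of free RNA in this ratio was not tested. Cxcr4 had 12 and 9 UMIs, and Cxcl12 had 99 and 107, a log2 ratio of 0.38 (-0.03 to 0.79). Of the 2 members with at least 50 UMIs, 1 reached a log2 ratio of 1, against 2.18% of 11102 genes, and 0 reached -1, against 2.06%.

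LEC-like cells were the class in which Ackr3 went the other way. They held 44 UMIs in 14 of 58 control cells and 7 UMIs in 3 of 51 cells after injection, 91.5 against 14.5 CPM (5.85 to 30.0), with a log2 ratio of -2.65 (-4.05 to -1.49). The highest LEC-like cell had 8 UMIs in control and 3 after injection. Cxcl12 in these cells had 30 and 43 UMIs, 62.4 against 89.3 CPM (64.7 to 120.3), a log2 ratio of 0.52 (-0.19 to 1.24). Of the 2 members with at least 50 UMIs, 0 reached a log2 ratio of 1, against 1.53% of 3977 genes, and 1 reached -1, against 2.01%. These values rest on few cells of pooled mice.

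EC clusters without a vessel class also carried the members. Cluster 13, led by Csf2, Sox9 and Fosl1, held 6 control and 296 B16-F10 6 h cells. In the latter Cxcl12 stood at 1123 CPM (1086 to 1162), Ackr3 at 71.8 CPM (62.4 to 82.1) and Cxcr4 at 1.68 CPM, from 5 UMIs. Its Cxcl12 thus lay between the levels of gCap-like and artery-like cells. Cluster 15, led by Fabp4, Rbp7 and Aqp7, held 172 and 29 cells, in which Ackr3 was 33.9 CPM in control and 235 CPM after injection, a log2 ratio of 2.79 (2.09 to 3.50). Cxcr4 in these cells rested on 35 and 7 UMIs, with a log2 ratio of 0.19 (-1.23 to 1.38). The 7 UMIs came from 1 of the 29 cells, against 20 of 172 cells in control, so this ratio rests on a single cell. When all ECs were summed, the log2 ratio of Cxcl12 was 0.14, against -0.17 in gCap-like cells alone.

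Cells other than ECs also held Cxcr4. In the B16-F10 6 h library, 19 neutrophil-like cells had 508 CPM of Cxcr4 (396 to 644), 38 B-like cells 212 CPM (160 to 276), 36 macrophage/monocyte-like cells 144 CPM (114 to 179) and 26 T/NK-like cells 116 CPM (76.6 to 169). Ackr3 had 0 UMIs in the neutrophil-like and macrophage/monocyte-like cells, 2 in the B-like and 1 in the T/NK-like cells. Summed leukocyte markers were higher in gCap-like cells of the B16-F10 6 h library. The 8 neutrophil markers summed to 2.84 CPM in control, with Mmp8 and Ly6g at 0, and to 8.03 CPM after injection. The 8 macrophage/monocyte markers summed to 16.2 CPM, with C1qa at 0, and 30.7 CPM, the 6 B markers to 2.68 and 4.80 CPM, and the 8 T/NK markers to 0.402 CPM, with Cd3e, Il7r and Ncr1 at 0, and 1.52 CPM. No marker of these lists was at 0 after injection. Platelet markers summed to 21.4 and 23.6 CPM, red cell markers to 1213 and 1433 CPM, epithelial markers to 202 and 171 CPM, mural markers to 29.4 and 47.8 CPM and fibroblast markers, with Lum at 0 in both, to 8.50 and 16.2 CPM. Among gCap-like cells without a UMI of the neutrophil, T/NK, B or platelet markers, 4335 in control and 3695 after injection, the log2 ratio was 1.602 for Ackr3, -2.14 for Cxcr4 and -0.14 for Cxcl12, an alternative added after the data were seen.

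The melanoma-like cells themselves, 78 in the B16-F10 6 h library and 0 in control, had 2 UMIs of Ackr3, 0 of Cxcr4, which allows at most 3.62 CPM, and 7 of Cxcl12. They had 1936 UMIs of Mif, a cytokine that also binds CXCR4 and ACKR3, or 2338 CPM (2235 to 2444). Melanoma markers in gCap-like cells summed to 26.7 CPM in control, with Mlana, Tyrp1 and Slc45a2 at 0, and to 54.8 CPM after injection, and their part in the members' levels was not tested.

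Within gCap-like cells, the members were next ordered along a score that summed 10 arterial genes, such as Gja4, Hey1 and Sox17, minus 10 venous genes, such as Nr2f2 and Ephb4, after each cell was thinned to 2000 UMIs. The score held no member, and its tertiles are ranges of cells, not types. The order matched that of the larger vessels. In the control library Ackr3 was 105 CPM in the lowest, most venous tertile (99.001 to 110.5), 55.0 CPM in the middle (51.0 to 59.3) and 38.0 CPM in the highest, most arterial tertile (34.7 to 41.7). Cxcr4 ran the other way, at 10.5 CPM (8.79 to 12.5), 22.5 CPM (19.99 to 25.3) and 43.4 CPM (39.8 to 47.2). Cxcl12 ran with Cxcr4, at 206 CPM (198 to 214), 353 CPM (343 to 364) and 592 CPM (579 to 606).

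These gradients were kept after injection while the receptor levels were shifted. The most arterial over the most venous tertile had a log2 ratio of -1.46 (-1.62 to -1.31) in the control and -1.01 (-1.09 to -0.92) in the B16-F10 6 h library for Ackr3, of 2.04 (1.76 to 2.33) and 2.07 (1.54 to 2.63) for Cxcr4, and of 1.53 (1.46 to 1.59) and 1.45 (1.38 to 1.51) for Cxcl12. Between the libraries, Ackr3 was higher in each tertile, by 1.41 (1.31 to 1.498) in the most venous and 1.86 (1.71 to 2.01) in the most arterial. Cxcr4 was lower in each, by -1.96 (-2.53 to -1.42), -2.40 (-2.83 to -1.98) and -1.93 (-2.20 to -1.67) from venous to arterial. Cut points were set within each library, at scores of 2 and 4 in control and 1 and 3 after injection, and many cells shared the score at a cut.

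The study's marker list of reactive capillary cells (rCap), chosen in part on these libraries, gave another order. With Ackr3 left out, 49 genes were summed per cell. In the control library Ackr3 was 56.5, 67.5 and 73.6 CPM from the lowest to the highest tertile, a log2 ratio of 0.38 (0.24 to 0.53) between the ends. Cxcr4 was 24.8, 25.2 and 26.1 CPM, which overlapped. In the B16-F10 6 h library Ackr3 was 90.8 CPM (85.8 to 96.0), 146 CPM (139 to 153) and 370 CPM (359 to 380), and Cxcr4 was 9.34 CPM (7.78 to 11.1), 6.68 CPM and 2.22 CPM (1.499 to 3.17). The cells with the highest rCap score thus had the most Ackr3 and the least Cxcr4. Cxcl12 ran downward there, at 381, 345 and 292 CPM, whereas in control it ran upward, at 345, 387 and 415 CPM with a log2 ratio of 0.27 (0.21 to 0.33) between the ends. In the lowest tertile of each library, Ackr3 was higher after injection, with a log2 ratio of 0.68 (0.55 to 0.82), and Cxcr4 lower, with -1.41 (-1.72 to -1.10). Cut points were again set within each library, at scores of 19 and 25 in control and 32 and 47 after injection. The lowest tertile held scores of 3 to 19 in control and 5 to 32 after injection, so cells of like score were not compared.

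A score of 13 genes of sprouting tip cells, in which Cxcr4 is often described, was taken in the same way. Its cuts lay at scores of 1 and 2 in both libraries, shared by 1583 and 1058 of 4897 control cells. After injection 1309 and 1037 of 4556 cells shared them. Neighbouring tertiles thus overlapped in score, and the size of these ratios is not set against that of other scores. Cxcr4 in the highest over the lowest tertile had a log2 ratio of 0.52 (0.29 to 0.75) in the control and 0.29 (-0.19 to 0.77) in the B16-F10 6 h library. For Ackr3 the same values were -0.09 (-0.23 to 0.05) and 0.43 (0.35 to 0.50).

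**Figure D3:**
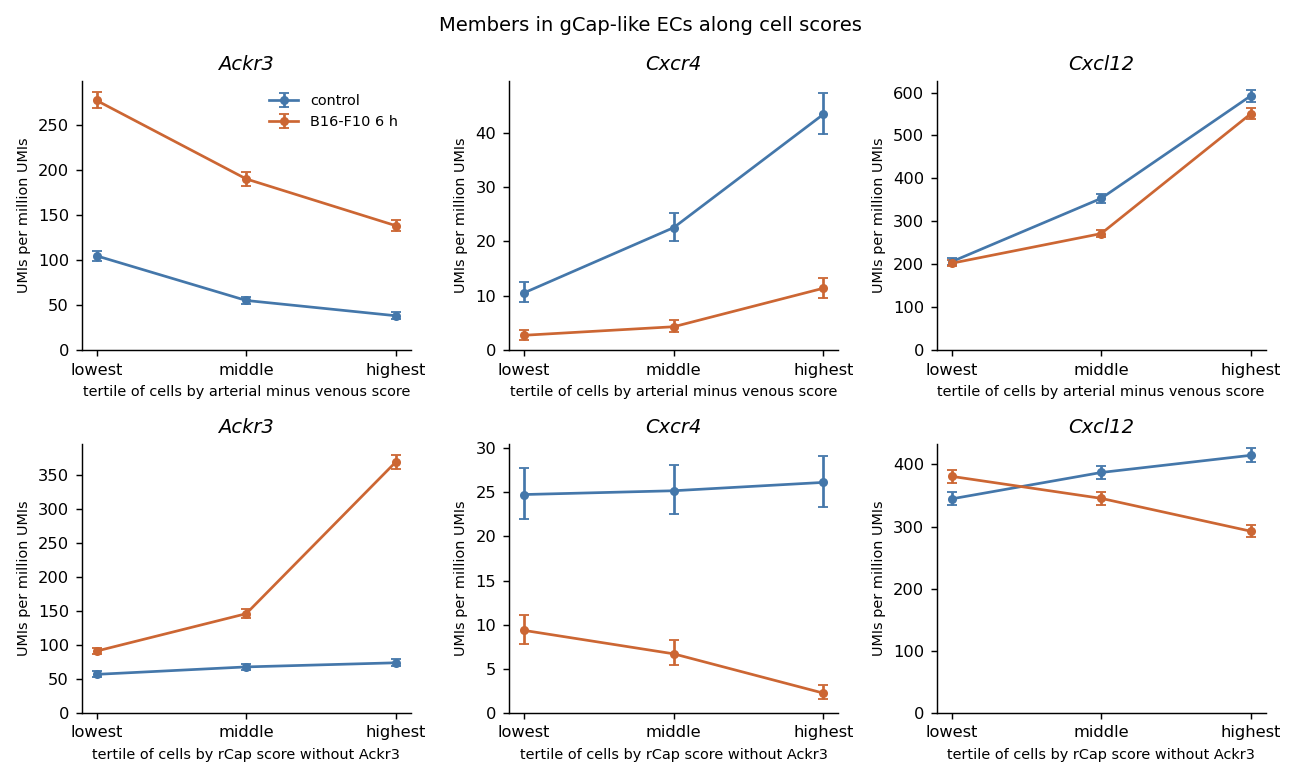
Level of the members (CPM) in gCap-like ECs split into tertiles of an arterial minus venous score (top) and of an rCap score without Ackr3 (bottom), control in blue and B16-F10 6 h in orange, with 95% Poisson intervals. The top row shows Ackr3 falling and Cxcr4 and Cxcl12 rising toward the arterial side in both libraries. The bottom row shows Ackr3 reaching 370 CPM and Cxcr4 2.22 CPM in the highest rCap tertile after injection, while in control Ackr3 runs from 56.5 to 73.6 CPM.

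Whether single cells held both receptors was asked in gCap-like cells thinned to 2000 UMIs, 4897 in control and 4556 in the B16-F10 6 h library. The receptors were seldom found in the same cell. Both had a UMI in 13 control cells, 0.265% (0.141 to 0.454), where the product of the single shares (11.05% and 4.17%) would give 22.5 cells. After injection 7 cells had both, 0.154% (0.0618 to 0.316), against a product of 13.7 cells from shares of 24.5% and 1.23%. The count was thus below the product in both libraries, by ratios of 0.577 and 0.509. At 2000 UMIs per cell, the product lay just above the interval of the share in control and inside it after injection. The second difference was thus within counting error at that depth. The receptors also had opposite gradients along the arterial minus venous score. Without thinning, 105 control cells (2.12%) and 66 B16-F10 6 h cells (1.44%) held both. The single shares were then 28.1% for Ackr3 and 12.6% for Cxcr4 in control, and 50.1% and 4.23% after injection. Both unthinned counts lay below the product of these shares beyond counting error, with depth per cell not held fixed.

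At this depth, receptor and ligand met in the same cell about as often as their shares gave. Ackr3 and Cxcl12 were together in 191 control cells (3.90%, 3.38 to 4.48) and 360 cells after injection (7.90%, 7.13 to 8.72), against products of 196 and 377 cells. Cxcr4 and Cxcl12 were together in 81 control cells (1.65%, 1.32 to 2.05) and 24 after injection (0.527%, 0.338 to 0.783), against 73.8 and 18.9 cells. Without thinning, Cxcr4 was found in 14.3% (13.1 to 15.6) of control cells with Cxcl12 and 9.90% (8.58 to 11.3) of those without, and after injection in 5.13% (4.35 to 5.997) and 2.71% (1.99 to 3.59), so Cxcr4 was then more frequent beside the ligand in both libraries. Depth per cell was not held fixed there. Capillary cells with a UMI of the ligand and of Ackr3 thus outnumbered those with the ligand and Cxcr4 in both libraries, and by more after injection. Cells with Ackr3 alone among the members made up 7.00% in control (6.31 to 7.76) and 16.5% after injection (15.4 to 17.6), and cells with Cxcr4 alone 2.37% (1.96 to 2.83) and 0.571% (0.373 to 0.835).

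The difference between the libraries in the share of cells with both receptors was -0.11 percentage points (-0.32 to 0.09). It was 4.001 points (3.05 to 4.96) for Ackr3 with Cxcl12 and -1.13 points (-1.56 to -0.72) for Cxcr4 with Cxcl12. The last 2 intervals exclude 0, and without thinning that of both receptors does too, at -0.68 points (-1.21 to -0.15). These shares follow the depth per cell and the single levels, and cells of 1 library are not replicates.

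After injection, Ackr3 was found more often in cells with a UMI of an rCap marker of the study. Ackr3 is itself on the study's rCap list, which was chosen in part on these libraries. Its presence beside other rCap markers is thus a description and no separate support. In the B16-F10 6 h library, 35.8% (33.3 to 38.2) of cells with a UMI of Pim3, a serine/threonine kinase, also had Ackr3, against 19.0% (17.6 to 20.5) of cells without. The shares were 31.1% (28.0 to 34.3) and 23.0% (21.7 to 24.4) for Bcl3, an atypical IκB protein, and 32.4% (28.0 to 36.9) and 23.7% (22.4 to 25.0) for Inhbb, a subunit of activin and inhibin. In the control library 13.8% (11.04 to 16.99) of cells with Pim3 and 10.7% (9.79 to 11.7) of those without had Ackr3, and for Bcl3 the shares were 11.7% and 11.02%. For Inhbb the control values ran the other way, with Ackr3 in 1 of 46 cells with Inhbb (2.17%, 0.055 to 11.5) and in 11.1% (10.3 to 12.1) of cells without. Cxcr4 with Inhbb was picked after its values were seen: in control, 10 of the 46 cells with Inhbb had Cxcr4 (21.7%, 10.9 to 36.4), against 3.999% of cells without Inhbb. After injection 442 cells had Inhbb, and 2 of them had Cxcr4 (0.452%, 0.0548 to 1.62), against 1.31% of those without.

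**Figure D4:**
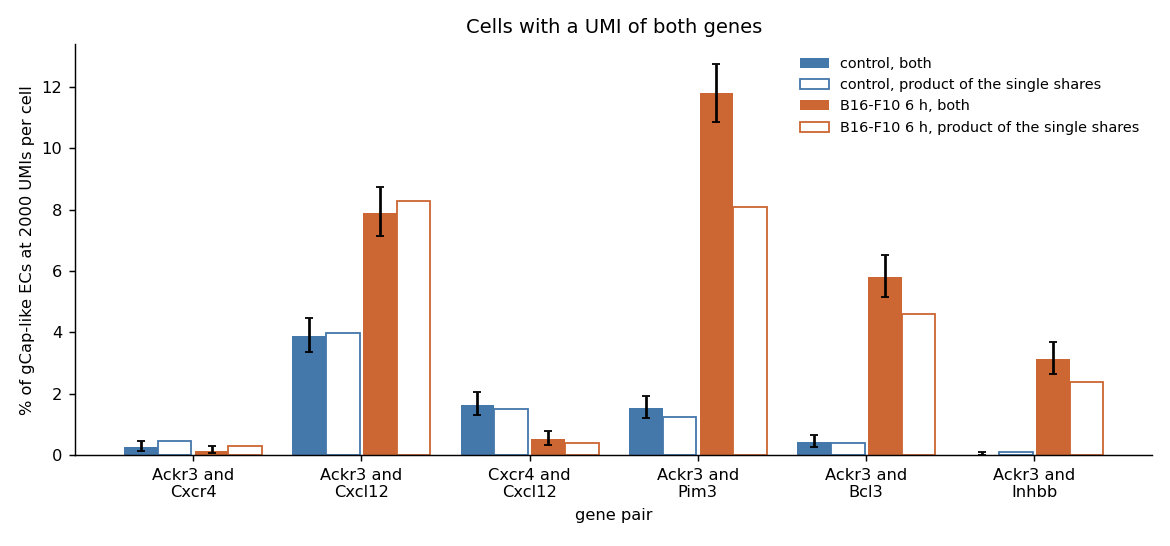
Share of gCap-like ECs with a UMI of both genes of a pair at 2000 UMIs per cell (filled bars, 95% Clopper-Pearson intervals) beside the product of the single shares (open bars), control in blue and B16-F10 6 h in orange. Ackr3 with Cxcr4 lies below its product in both libraries (0.265% and 0.154% of cells), though after injection the interval includes the product. Pairs with Cxcl12 lie near their products. Ackr3, itself on the study's rCap list, lies above the product with Pim3, Bcl3 or Inhbb after injection.

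In artery-like cells at the same depth, 0 of 179 control and 0 of 139 B16-F10 6 h cells had both receptors, where 0.492 and 0.374 cells would be given by the product, so these cells were too few to show a difference. Among vein-like cells 1 of 293 and 0 of 278 had both. Ackr3 alone was found in 53.9% (48.0 to 59.7) and 65.1% (59.2 to 70.7) of vein-like cells.

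The other genes of the axis were a list of 39 ligands, receptors, binding partners and regulators, of which 38 were in the matrices. Since Ackr3 and Cxcr4 were selected on their ratios in gCap-like cells, nothing is read from the size of theirs beside this list. In gCap-like cells 31 had at least 50 UMIs, and 14 were higher, 13 lower and 4 within counting error. Of all 13292 genes there, 28.7% were higher and 34.7% lower beyond counting error. Deeply counted genes pass counting error at small ratios, so these counts say little of size. The median log2 ratio of the 31 was 0.01, beside -0.04 over all genes, and 0 of them reached a log2 ratio of 1 or -1.

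Among other ligands, Mif was 42.8 CPM in control and 58.3 CPM after injection, a log2 ratio of 0.45 (0.35 to 0.54). Adm, which encodes adrenomedullin, also bound by ACKR3, rested on 32 and 43 UMIs in these cells. In LEC-like cells Adm had 46 and 21 UMIs, 95.6 against 43.6 CPM, a log2 ratio of -1.13 (-1.95 to -0.36), in the same direction as Ackr3 there. The adrenomedullin receptor gene Calcrl had a log2 ratio of -0.54 (-0.55 to -0.53) in gCap-like cells. Cd74, through which MIF signals, had 0.54 (0.48 to 0.60) there and 1.11 (0.55 to 1.68) in aCap-like cells.

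The other atypical chemokine receptors had small ratios in both directions in gCap-like cells. Ackr2, a scavenger of inflammatory CC chemokines, had a log2 ratio of 0.16 (0.09 to 0.22) there and 0.35 (0.27 to 0.42) in aCap-like cells. It had 0.45 (0.08 to 0.83) in vein-like cells, where that of Ackr3 was 0.47. In LEC-like cells Ackr2 had 0.90 (0.29 to 1.52), opposite to the -2.65 of Ackr3. In gCap-like cells Ccrl2, which binds chemerin, had -0.26 (-0.32 to -0.20), and Ackr4, which binds CCL19 and CCL21, -0.51 (-0.65 to -0.37). Ackr1 had 0 UMIs in gCap-like cells of both libraries.

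Genes of heparan sulfate, on which CXCL12 is held, differed in both directions. The proteoglycan Sdc4 had a log2 ratio of 0.70 (0.58 to 0.83) and the sulfotransferase Ndst1 0.65 (0.59 to 0.71), while Ext1, a chain polymerase, had -0.46 (-0.51 to -0.42). Outside gCap-like cells, Sdc4 reached 1.14 (0.92 to 1.36) in aCap-like cells, and Hspg2, which encodes perlecan, -1.54 (-2.24 to -0.88) in artery-like cells. Dpp4, a protease that inactivates CXCL12, was 189.6 CPM in control (7072 UMIs) and 113 CPM after injection (4529 UMIs), a log2 ratio of -0.75 (-0.81 to -0.70). Mmp2, another protease that cleaves CXCL12, had -0.73 (-1.35 to -0.13).

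Downstream, Gnai2, the G protein subunit of chemokine receptors, had a log2 ratio of 0.51 (0.49 to 0.53), and Arrb1, an arrestin that both receptors recruit, -0.27 (-0.32 to -0.21). Grk5, a kinase that phosphorylates such receptors, had -0.55 (-0.60 to -0.50). Among regulators, Hif1a, the hypoxia-inducible factor, had 0.68 (0.61 to 0.75), Klf4, which responds to blood flow, 0.44 (0.41 to 0.47), and Dach1, a factor described in Cxcl12-guided artery growth, -0.56 (-0.58 to -0.53). These ratios are not set against those of Ackr3 and Cxcr4, which were selected on this contrast.

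**Figure D5:**
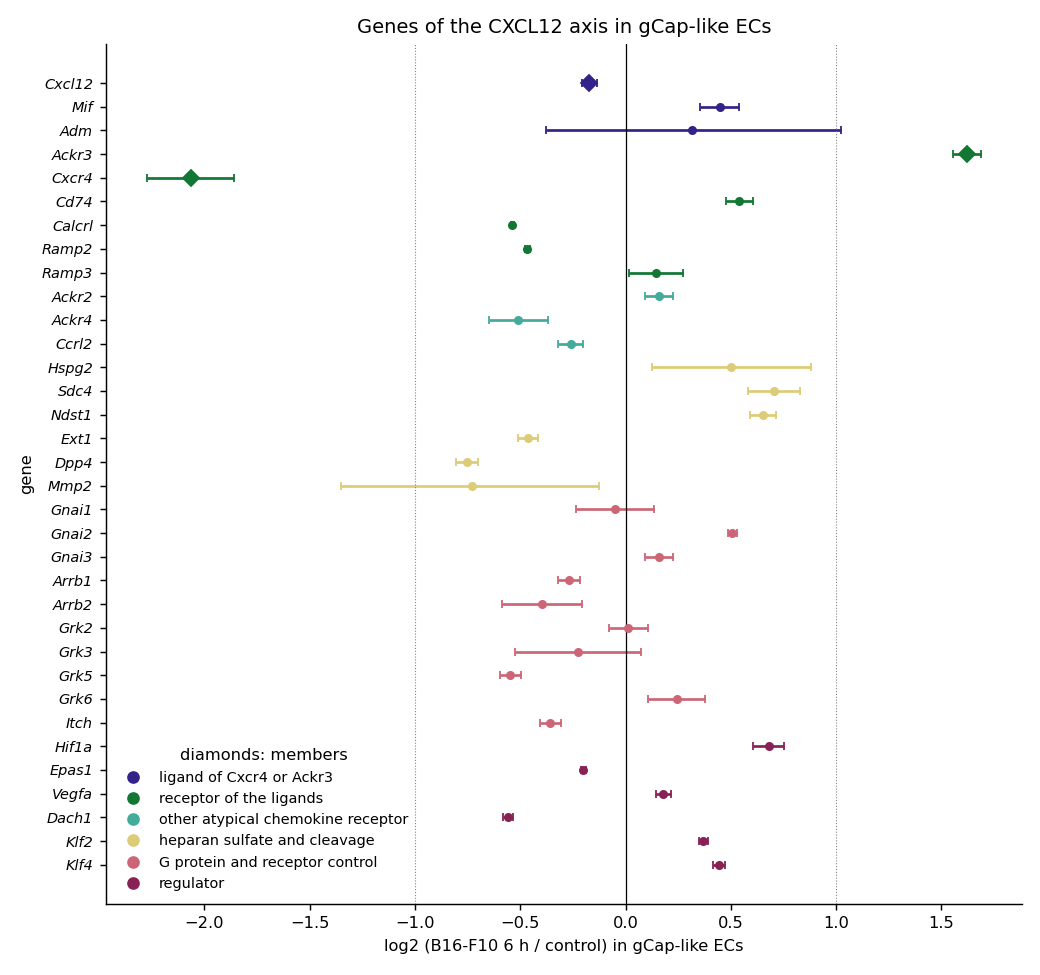
Log2 ratio of the B16-F10 6 h to the control level in gCap-like ECs for the 34 axis genes with at least 50 UMIs, coloured by role, with 95% counting intervals. Diamonds are Cxcl12, Ackr3 and Cxcr4, and dotted lines mark -1 and 1. Ackr3 at 1.62 and Cxcr4 at -2.06 are the points beyond the dotted lines.

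The order of levels over the 5 vessel classes in both libraries, 10 points that share libraries and depth, was compared with that of 11844 genes by Pearson's r of log2(CPM + 1), as a description. Ackr3 was most like Gas5, Rpl18, Nucks1, Rpl37 and Rpl13 (r = 0.96 to 0.97), Cxcr4 most like Tnfrsf13b, Cysltr2, Arglu1, Chac1 and Esm1 (0.96 to 0.98), and Cxcl12 most like Prdm16, Rnd3, Camk2d, Gnpat and Rapgef1 (0.94 to 0.98). Between the members r was 0.81 for Cxcr4 with Cxcl12, 0.30 for Ackr3 with Cxcl12 and -0.02 for Ackr3 with Cxcr4.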

How the data were processed

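The authors deposited unfiltered matrices of UMI counts for every barcode. Their headers name Cell Ranger 7.2.0. The study's methods name an earlier version, the labels name a v2 kit although more barcodes are listed than that kit holds, and whether intron reads were counted is not stated. A barcode counted as a cell if it had 1000 to 5000 genes and its mitochondrial share was below 20%. Doublets were called with Scrublet in scanpy 1.11.5 at 0.8% per 1000 cells, which removed 564 and 554 cells. Of 3000 variable genes, 2947 remained after the members and the axis, rCap and interferon lists were left out. Cells were scaled within their library and clustered with leidenalg 0.10.2 (30 components, 20 neighbours, resolution 0.8) into 27 clusters. A cluster was named where at least 3 markers and 50% of a fixed list were 1.5-fold above the mean of other clusters in at least 10% of its cells. Endothelial clusters that met this rule for another lineage as well (mixed, 687 and 1222 cells) were left out.

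UMIs were summed per class and library. CPM carry exact Poisson intervals, ratios exact conditional binomial intervals without pseudocount, shares Clopper-Pearson and differences of shares Newcombe intervals, all at 95%. They describe counting error alone, and since each group is 1 library, nothing was tested. The ratio script was tested on simulated data. Where no UMI was found, the limit is 3 counts. The text names the members, axis genes with at least 50 UMIs by role, Pim3, Bcl3 and Inhbb, and the 5 genes most like each member. Leading genes of clusters and levels in other cells are named as descriptions. The members and lists were chosen with earlier results of these data known. Proteins were not analysed here. Alternatives covered cell limits, doublets, clustering, scaling, depth and free RNA.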

Additional observations from a re-analysis of the deposited data

Results flagged for a closer look

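Ackr3 in LEC-like ECs had a log2 ratio of -2.65 (-4.05 to -1.49), opposite to the 1.62 of gCap-like ECs, and the difference between these classes was not tested. Cxcl12 in artery-like ECs had a log2 ratio of 0.51 (0.44 to 0.58), opposite to the -0.17 of gCap-like ECs, which was not tested either.

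Barcodes outside the limits on cells also held more Ackr3 in the B16-F10 6 h library. The level was 117 CPM against 50.3 CPM in control in barcodes with 1 to 100 UMIs, 90.3 against 29.5 CPM in those with more UMIs but under 300 genes, 40.3 against 17.7 CPM in those with at least 300 but under 1000 genes, and 156 against 72.4 CPM in those with over 5000 genes. The first of these tiers is the one from which free RNA was estimated. Cxcr4 in the same tiers was 13.1 against 22.0, 21.01 against 17.2, 5.45 against 13.2 and 17.5 against 13.3 CPM, so that its difference had no single direction outside the limits, where leukocytes were not separated from ECs.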

How the results depend on the processing

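No paired analysis was possible because 1 library stood for each group. The 17 values were recomputed 176 times in all: 148 recomputed values lay inside the main value's interval, 26 lay outside it, and 2 reversed: Cxcl12 was 0.14 when all ECs were summed in place of gCap-like cells, and 0.13 in vein-like cells with at least 500 genes. In gCap-like cells Ackr3 was 1.82 at resolution 1.6, 1.55 when thinned to 2000 UMIs, 1.26 over all ECs and 0.86 with clusters weighted as in control. Cxcr4 was -1.80 with that weighting. Cxcl12 was -0.12 with at least 500 genes, -0.23 at resolution 1.6, -0.13 after division by the all-gene median ratio and -0.0915 with the weighting. Ackr3 was 1.03 in aCap-like and 0.38 in vein-like cells with no upper limit of genes, and 1.73 in artery-like cells at resolution 1.6. The cause was not tested. Shares of cells with both genes grow with depth by construction: at 4000 UMIs and unthinned, the differences were -0.33 and -0.68 points for Ackr3 with Cxcr4, of which the second interval excludes 0, 8.52 and 14.6 for Ackr3 with Cxcl12, and -3.51 and -5.66 for Cxcr4 with Cxcl12. Cxcl12 in artery-like cells, at 0.51 in the main setting, was 0.41 with at least 500 genes, 0.34 with no upper limit of genes and 0.33 at resolution 1.6. Cxcl12 in aCap-like cells, whose main interval includes 0, was -0.50 with no doublet removed. Cxcr4 in vein-like cells changed sign, from -1.02 to 1.73 with no upper limit of genes. That value lay inside its main interval of -6.90 to 3.25, which rests on 2 and 1 UMIs. Cxcr4 in LEC-like cells, at 0 UMIs in both libraries, gave no ratio. Mice, pooling and library are the same unit here, so they cannot be told apart from the treatment.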
